A study of Mus musculus with 6 samples.

Results

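The whole uterus of floxed control mice was described at weaning, from 3 poly(A) RNA libraries of female mice killed on postnatal day 21. The 3 libraries, titled Nat10 f/f with replicate numbers 1, 2 and 3, were taken from the 6 libraries of the series by their titles. The remaining libraries come from Nat10 d/d uteri and enter no value below. Both alleles of Nat10, which encodes an RNA cytidine acetyltransferase, are floxed in these controls, meaning that recombination sites flank part of the gene. The labels give no other allele, agent or treatment for them. They do not name the strain, the flanked exons, a Cre driver, or the number of animals behind a library. Values are FPKM, that is, fragments per kilobase of gene and scaled to the size of the library, so levels of different genes can be set side by side. Errors are standard deviations over the 3 libraries (SD, n = 3). Because only 1 group is described, no test was run, and nothing shows whether the spread between libraries is biological or technical.

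At weaning the mouse uterus is still prepubertal. A luminal epithelium lines the lumen, a stroma of mesenchymal cells surrounds it, smooth muscle forms the outer wall, and glands are growing from the epithelium into the stroma. Oestrogen and progesterone act on this tissue through nuclear receptors that bind DNA once the hormone is bound, and the cycling ovary that will supply both hormones has not yet started to work. Reads from bulk tissue do not separate a smaller number of cells of a type from less RNA per cell.

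Of 20637 listed genes, 12592 (61% of them) had a mean of at least 1 FPKM over the controls, and 4310 were listed at 0 in all 3. Between 15431 and 15680 genes were above 0 in a library. Total read numbers are unknown, but the sizes of the lowest values put replicates 2 and 3 at 0.813 and 0.872 of the depth of replicate 1. Replicate 1 stood apart from the other controls in the fat and clock genes, and replicate 2 in the mitosis genes, as described below. Nat10 itself (ENSMUSG00000027185, mm10 chromosome 2, 103721256 to 103761270, minus strand) was at 13.2, 16.4 and 9.95 FPKM in replicates 1, 2 and 3, and the highest library was 1.64 times the lowest.

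The transcriptome was led by the protein synthesis machinery. Eef1a1, which encodes the elongation factor that delivers aminoacyl-tRNA to the ribosome, was the most abundant gene with 7284, 6519 and 7270.3 FPKM. Of the 15 most abundant genes, 13 encode cytosolic ribosomal proteins, and the rest are Eef1a1 and Tpt1, which encodes the translationally controlled tumour protein (4888, 4816 and 4125 FPKM). Rplp1, a protein of the ribosomal stalk, followed Eef1a1 with 6285, 5801 and 5808 FPKM, and Rps27 had 3923, 4325 and 4090.4. Ribosomal protein genes held 35 of the 40 highest ranks and took 26.2% ± 0.6 of the summed values (SD, n = 3). The 10 most abundant genes took 8.08% ± 0.137 of the sum, and the 100 most abundant 34.5% ± 0.855 (SD, n = 3). The 77 most abundant genes held 30.4% of the summed means, while the 5024 genes between 1 and 10 FPKM held 4.86%. Transcripts of the mitochondrial genome were not analysed here.

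Outside the ribosome, contractile and matrix genes were among the highest. Acta2, the smooth muscle actin, was at 1718, 1941 and 1614 FPKM, and Col3a1, a fibrillar collagen chain, was at 1447, 1181 and 1419.5.

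Receptors for the ovarian steroids were abundant for the oestrogen receptor alpha and the progesterone receptor and near 0 for the oestrogen receptor beta. Esr1 (ENSMUSG00000019768, chromosome 10, 4611593 to 5005614, plus strand), the oestrogen receptor alpha gene, was at 134, 129 and 83.9 FPKM, with replicate 3 below the other controls. Pgr (ENSMUSG00000031870, chromosome 9, 8899833 to 8968611, plus strand), the progesterone receptor gene, was at 73.8, 62.2 and 60.3 FPKM. Esr1 exceeded Pgr in every library, by 1.81, 2.08 and 1.39 times. Esr2, the oestrogen receptor beta gene, was at 0.0669, 0.108 and 0.0512 FPKM, so Esr1 was between 1197 and 1997 times as high within a library.

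Nr3c1, the glucocorticoid receptor gene, was at 46.1, 40.3 and 35 FPKM, and Nr3c2, the mineralocorticoid receptor gene, at 3.64, 3.06 and 4.09. Among the membrane-associated proteins that have been linked to steroid binding, Pgrmc1 was at 191, 177 and 180.0 FPKM and Pgrmc2 at 39.2, 37.1 and 37.2. Gper1, a G protein-coupled receptor that responds to oestrogen, was at 5.9, 5.83 and 6. From high to low the order was Pgrmc1, Esr1, Pgr, Nr3c1, Pgrmc2, Gper1, Nr3c2 and Esr2. In each neighbouring pair of this order except Nr3c1 and Pgrmc2, whose ranges overlapped, every library of the higher gene lay above every library of the lower gene. Leaving out replicate 3 separated that pair too.

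**Figure D1:**
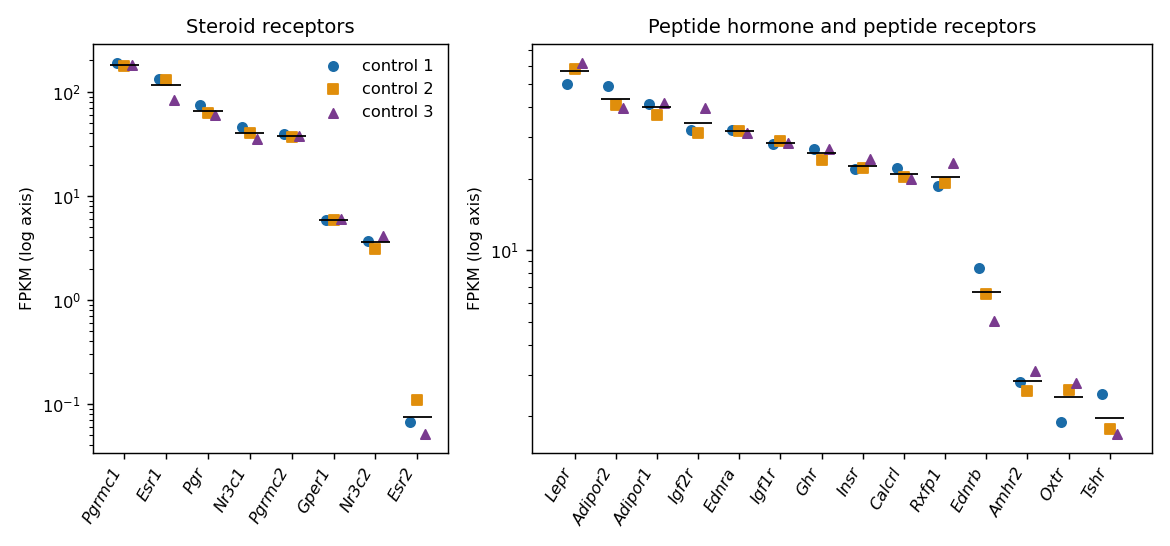
FPKM on a log axis for 8 steroid receptor genes (left) and the 14 most abundant of the peptide receptor genes (right), with a point for each control library and a bar at the mean of the 3. Esr1 and Pgr lie between 60.3 and 134 FPKM in all libraries, and Esr2 lies at or below 0.108.

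Other nuclear receptors ranged widely in level. Of 36 genes, 27 had a mean of at least 1 FPKM, as did 61% of all listed genes, the share against which the same count in each list below can be read. Thra, a thyroid hormone receptor gene, was the highest at 109, 106 and 107 FPKM and exceeded its relative Thrb 23.5 to 37.5 times. Nr2f2, known as COUP-TFII and a regulator of stromal identity in the uterus, followed at 76.7, 74.6 and 72.9. Nr1h2, the oxysterol receptor LXR beta gene, was at 51.9, 52.9 and 56.8, and Nr2f6, an orphan receptor gene, at 46.1, 46.8 and 39.6. Among the retinoic acid receptors, Rarg was 2.16 to 2.41 times as high as Rara. Hnf4a and Nr5a1, which mark liver and gut or steroid-making cells, had means of 0.00465 and 0.00808 FPKM and were at 0 in 2 of the 3 libraries each; these and Thrb, Rarg and Rara are named after their values were seen.

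Of 20 genes for receptors of peptide hormones and related ligands, 16 had a mean of at least 1 FPKM. The 4 highest were Lepr, the leptin receptor gene (50.5, 58.1 and 61.8 FPKM), the adiponectin receptor genes Adipor2 (49.3, 41.1 and 40) and Adipor1 (41.5, 37.3 and 41.8), and Igf2r, which clears IGF2 (32.2, 31.1 and 39.6). Neighbouring levels overlapped among Adipor2, Adipor1 and Igf2r. Oxtr, the oxytocin receptor gene that rises in the pregnant myometrium, was at 1.89, 2.57 and 2.76 FPKM, and Fshr and Gnrhr were listed at 0 in all 3.

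The cofactors and chaperones that these receptors need had a median spread below that of all genes, although some members were uneven. Of 20 genes, 19 had a mean of at least 1 FPKM, and the median SD of their log2(FPKM + 1) was 0.0935, against 0.123 over all genes. Hsp90ab1, a chaperone that holds unliganded steroid receptors, was at 1003, 940.0 and 1059.7 FPKM. Fkbp4, a cochaperone of the progesterone receptor, was at 168, 187 and 144, and Gata2, a transcription factor in the uterine response to progesterone, at 107, 102 and 107. Hsp90aa1, the stress-inducible partner of Hsp90ab1, was highest in replicate 2, with 162, 229 and 141. So were the Hsp90 cochaperone Ptges3, with 65.8, 81.9 and 44.7, and Stip1, with 62.7, 76 and 52.5. Fkbp5, a cochaperone induced by glucocorticoids, was low and uneven at 4.4, 2.25 and 1.58.

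Several genes that make sex steroids were near or at 0, and genes that interconvert or inactivate steroids were present. Of the 19 listed genes of this group 9 had a mean of at least 1 FPKM. Cyp17a1 and Cyp19a1, which make androgens and oestrogens, were listed at 0 in all 3 libraries, and Cyp11a1, the first step from cholesterol, was at 0.114, 0.271 and 0.559. Srd5a1 (5.16, 3.88 and 4.83 FPKM) and Star (3.58, 3.06 and 2.59), of the same group, were higher. The highest members were Hsd17b10 (117, 106 and 105 FPKM), Hsd17b11 (93.4, 86.9 and 96), Hsd17b4 (46.1, 43.5 and 42.1) and Hsd17b12 (31.9, 35.1 and 25), members of a dehydrogenase family of which several act mainly on lipids. Hsd11b2, which inactivates glucocorticoids, exceeded Hsd11b1, which regenerates them, 3.93 to 5.09 times.

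Genes that oestrogen induces in the adult uterus had a larger median spread between libraries than all genes. Of 18 listed genes, 15 had a mean of at least 1 FPKM, with a median level of 8.05 and a median SD of 0.41 on the log2 scale. The median SD over all 12592 genes was 0.123. Of the 15, 8 were lowest in replicate 1 and highest in replicate 3, against 14.3% of all genes, which is also the order of the interferon, MHC and myeloid lists below. A 2-fold range, that is, a difference of 1 in log2(FPKM + 1) between the highest and the lowest library, was reached by 1 of the 15, Greb1 (4.89, 1.77 and 2.44), against 2.24% of all genes. The 4 highest were Igf1, a growth factor of the stroma (51.7, 53.3 and 31.6 FPKM), the complement gene C3 (15.6, 28.6 and 31), Ramp3, a partner of the adrenomedullin receptor (24.3, 17 and 20.4), and Clca1 (14.3, 12.3 and 24.5). Ltf, the secreted lactoferrin gene that serves as a classical marker of oestrogen action in the uterine epithelium, was at 2.02, 2.2 and 2.42. The progesterone-induced list had 13 of 15 members at a mean of at least 1 FPKM. It was led by Hoxa10 (144, 148 and 132) and Gata2, followed by the hedgehog target Gli1 (36.7, 42 and 43.2) and the stromal factor Hand2 (36.2, 36.6 and 39.3). A 2-fold range was reached by 2 of the 13, Lrp2 (7.13, 2.04 and 2.6) and Fst (6.1, 2.15 and 2.73), against 2.24% of all genes. Ihh, the epithelial hedgehog ligand, was at 14.1, 18 and 16.6 FPKM, while Areg and Calca, which progesterone induces in the adult epithelium, had means of 0.0205 and 0.169.

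The tissue label was checked against markers of the cell types a uterus holds. All 20 epithelial and all 20 stromal markers, and 18 of 20 smooth muscle markers, had a mean of at least 1 FPKM. The median level of the members that reached this mean was 367 FPKM for smooth muscle, 79 for stroma and 41.8 for epithelium. Markers differ in level per cell, so these medians do not give shares of cells. Smooth muscle was led by Acta2, Myl9 (1427, 1598 and 1259 FPKM), Tagln (935, 1015 and 979.9) and Pcp4 (928, 832 and 672). Its members were highest in replicate 2 in 15 of 18 cases, where 35.1% of all genes were highest in that library. Replicate 3 was the lowest for 12 of the 18, against 38.5% of all genes. Stroma was led by Col3a1, Dcn (1066, 1033 and 1115 FPKM), Col1a1 (765, 677 and 749.9) and Col1a2 (746, 641 and 727), which encode collagen chains and the collagen-binding proteoglycan decorin. Its members were lowest in replicate 2 in 13 of 20 cases, where 33.7% of all genes were lowest there. No member of either list reached a 2-fold range between libraries, which 2.24% of the 12592 genes reached.

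The epithelium was led by the tight junction gene Cldn3 (232, 201 and 205 FPKM) and the keratin genes Krt19 (164, 178 and 189), Krt8 (159, 186 and 175) and Krt18 (129, 125 and 164). Of 12 gland markers, 5 reached a mean of 1 FPKM, as did 61% of all listed genes. Sox17, which glands share with the luminal epithelium and endothelium, was at 87.5, 84.9 and 94.6 FPKM, and Lgr5, a Wnt-pathway receptor of early epithelium, at 8.16, 9.31 and 7.74. Foxa2, the transcription factor that defines gland cells, was at 2.72, 2.18 and 2.06, and Cxcl15, a gland product, at 2.88, 1.36 and 3.4. Prss28 and Prss29, proteases of mature glands, had means of 0.0476 and 0.12 and were at 0 in replicates 1 and 2.

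Vessels were represented by both kinds of endothelium. All 14 blood endothelial markers reached a mean of 1 FPKM, led by Cldn5 (74.7, 73.8 and 93.6), Pecam1 (69, 65.2 and 70.1), Cdh5 (68.7, 57.3 and 71.5) and Eng (55.9, 46.5 and 51.8). Of the 14, 11 were lowest in replicate 2, against 33.7% of all genes. Lymphatic markers were led by the chemokine gene Ccl21a (79.3, 87.1 and 84.1), which has near-identical copies, and Lyve1 (14.6, 19.1 and 17.2). All 8 pericyte markers were present, led by Mcam (125, 122 and 135) and Rgs5 (137, 104 and 96.9). The outer mesothelial layer gave 9 of 10 markers at a mean of at least 1 FPKM, led by Igfbp6 (172, 183 and 218) and Wt1 (34.7, 39.3 and 38.6), both also made by stroma. All 9 were lowest in replicate 1, against 27.9% of all genes.

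Among immune cell markers, those of myeloid cells were detected most completely. All 16 macrophage and myeloid markers reached a mean of 1 FPKM, and their summed level was 234, 281 and 326 in replicates 1, 2 and 3. Lyz2, the lysozyme gene, was at 50.8, 67 and 64 FPKM, and the complement genes C1qa (26.8, 36.6 and 46), C1qc (23.6, 33.7 and 42.6) and C1qb (25.8, 35.7 and 36.9) followed. Of 11 lymphocyte markers only Nkg7, of cytotoxic cells, reached a mean of 1 FPKM (1.55, 1.35 and 4.53), and of 9 neutrophil markers only S100a8 and S100a9 did. S100a8 was at 5.15 FPKM in replicate 1 and at 0 in the other libraries. Among mast cell markers, Tpsb2 was at 2.36, 3.42 and 4.91 and Kit at 4.13, 3.28 and 5.13, while Ms4a2 and Fcer1a were listed at 0. Hdc, the histidine decarboxylase gene, was at 47.7, 55.4 and 44.1, far above the other mast cell genes.

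**Figure D2:**
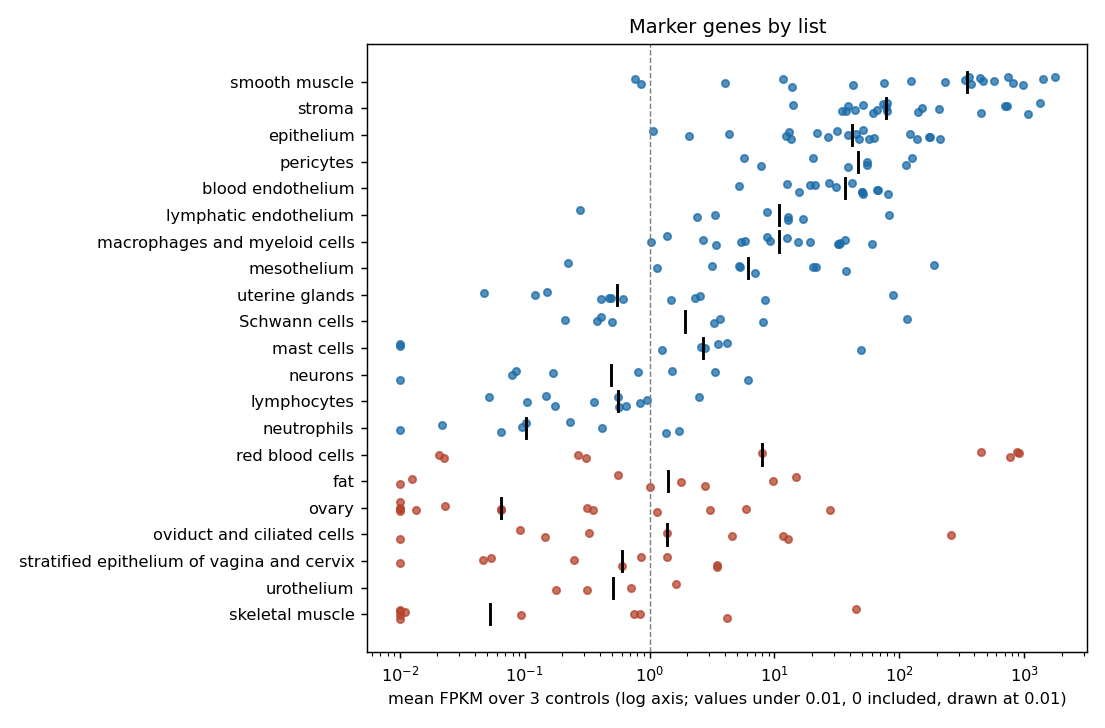
Mean FPKM over the 3 controls on a log axis for each marker gene, by list, with the list median as a black bar, levels under 0.01 drawn at that limit, and a dashed line at 1 FPKM. Blue lists are cell types of the uterus and red lists are blood and neighbouring tissues. Smooth muscle, stroma, pericytes, epithelium and blood endothelium lie to the right, and most ovarian and skeletal muscle markers lie left of 1.

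A mean of at least 1 FPKM was reached by 4 of 14 ovarian, 5 of 9 oviduct and 2 of 10 skeletal muscle markers, and by 61% of all listed genes. Of 14 ovarian markers, the oocyte and follicle genes Zp3, Oosp1, Nlrp5 and Fshr were listed at 0 in all libraries. Gdf9, a growth factor gene of oocytes, was above 0 in each, at 1.07, 0.826 and 1.58 FPKM. Foxl2 (28.1, 28.9 and 26.7 FPKM), Inha (5, 5.58 and 7.04) and Star (3.58, 3.06 and 2.59) were the highest of the list, and uterine cells are known to express Foxl2. In the oviduct list Ccdc153, of cilia, was listed at 0, and the secretory gene Ovgp1 was at 6.42, 5.58 and 1.73. Tppp3 (241, 266 and 269), Pax2 (12.2, 13 and 13.4) and Pax8 (10.1, 12.1 and 13) led that list and are not confined to the oviduct. Skeletal muscle genes Myh1, Myh3, Myh4 and Pvalb were listed at 0, although Acta1, which smooth muscle can also express, was at 54, 45.4 and 36.6 FPKM. Tnnt3, the fast skeletal troponin T gene, was at 3.98, 4.72 and 3.92, and Mylpf and Ckm had means of 0.833 and 0.752.

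Stratified epithelium of the lower tract was low, with Krt10 at 3.64, 3.93 and 2.92 FPKM, Krt15 at 5.37, 2.87 and 2.25 FPKM, Krt5 at 2.79, 0.761 and 0.572, and Krt6a listed at 0. Its summed level over 9 genes was 14.4, 9.31 and 6.85, highest in replicate 1.

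The 4 highest Hox genes were members 9 to 11 of the A and D clusters. The Hox genes set position along the body axis, with genes numbered 9 to 11 marking oviduct and uterus and number 13 the lower tract. Hoxa10 and Hoxa11 (86.7, 80.5 and 71.4 FPKM) were the highest of all Hox genes, followed by Hoxd9 (60.7, 59.7 and 64.5) and Hoxd10 (45.6, 45.3 and 53.2). Hoxa13 had a mean of 0.037 FPKM and Hoxd13 of 0.0632, and Hoxb13 and Hoxc13 were listed at 0. More anterior genes were also present, and Hoxd8 (37, 37.2 and 34), Hoxb6 (29.2, 29.2 and 32.5) and Hoxd4 (24.3, 28.8 and 32.2) had higher means than Hoxd11 (19.9) and Hoxa9 (19.4). Members 9 to 11 of the B and C clusters were low, with means of 3.52 for Hoxb9, 2.24 for Hoxc10, 2.18 for Hoxc11 and 0.256 for Hoxc9. Emx2, a homeobox gene needed for the Mullerian duct, was at 38.7, 41.3 and 38.9, and Wnt5a, a stromal Wnt ligand, at 76.2, 56.1 and 53.2. Lhx1, of the embryonic duct, was listed at 0. Hox genes outside the fixed lists are named after their values were seen.

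The controls resembled each other closely for most genes. The median SD of log2(FPKM + 1) over the 12592 genes was 0.123, and 90% of genes had an SD below 0.283. The range between the highest and lowest control reached 1 on this scale, or 2-fold, in 282 genes, 2.24% of the 12592. The share differed by level: 5.82% of genes with a mean of 1 to 3 FPKM passed, 2.63% of those from 3 to 10, 1.17% from 10 to 30, 1.5% from 30 to 100 and 1.98% at 100 or more. Between pairs of libraries, replicates 1 and 2 differed by 2-fold in 144 genes (1.14%), replicates 1 and 3 in 163 (1.29%) and replicates 2 and 3 in 108 (0.858%). Replicate 3 was the highest library for 132 of the 282 genes, replicate 1 for 122 and replicate 2 for 28. Over all 12592 genes, replicate 1 was the highest for 33.7% and replicate 2 for 35.1%. The count of genes over 2-fold was 113 without replicate 1, 165 without replicate 2 and 149 without replicate 3. It was 485 with a pseudocount of 0.1 and 441 with each library scaled to a sum of 1000000.

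The steadiest genes with a mean of at least 5 FPKM were Pgam5, a mitochondrial phosphatase gene (20.3, 20.3 and 20.4 FPKM), Igdcc4 (18.7, 18.7 and 18.7), Sall2, Dnajc18, the valyl-tRNA synthetase gene Vars, Mast3, the BMP modulator Twsg1, the transcriptional regulator Hcfc1, the DNA repair gene Fance and Sp2. Their SDs on the log2 scale lay between 0.00156 and 0.00387. Ribosomal protein genes had a median SD of 0.08 over 80 genes, against 0.123 over all genes. Among genes with a mean of at least 5 FPKM, the largest SDs belonged to Fabp4, Car3, Cfd, Zbp1, Tgtp2, Tgtp1, Ifit3, Hbb-bs, Hba-a2, Hbb-bt, Hba-a1, Irf7, Oas2, Ifit3b and Isg15. These 15 genes fall into the adipocyte, interferon and haemoglobin groups described next. Car3, a carbonic anhydrase gene abundant in fat and muscle, had no list of its own here.

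**Figure D3:**
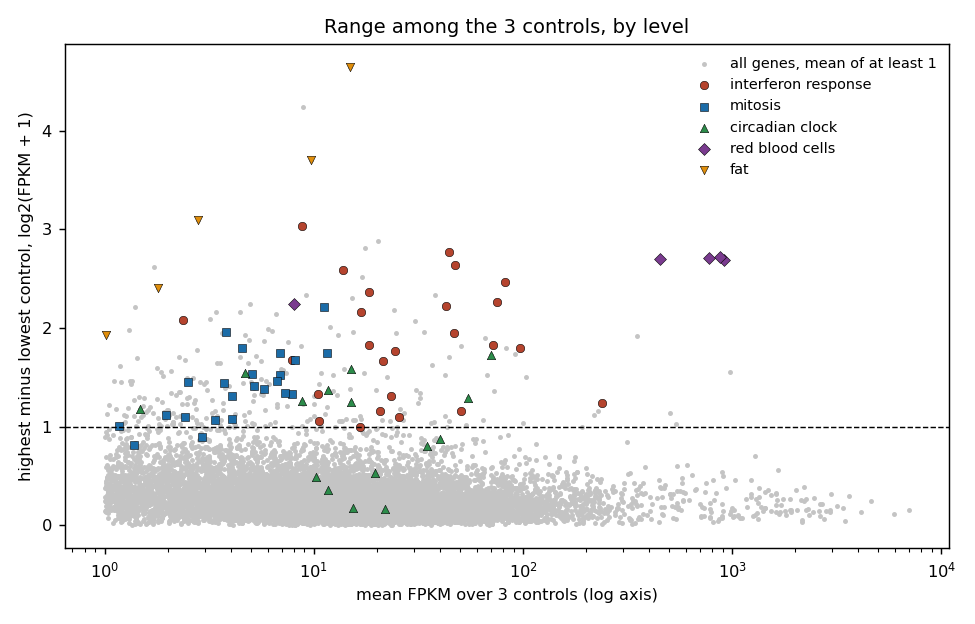
Range between the highest and lowest control on the log2(FPKM + 1) scale against mean FPKM (log axis), with 1 point for each of 12592 genes and 5 gene lists in colour. The dashed line marks a 2-fold range, which 282 genes reach, and 24 of 25 interferon response genes and 21 of 23 mitosis genes lie on or above it.

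Interferon response genes differed between the controls in a single order. Type I interferons activate a transcription factor complex, containing STAT2 and IRF9, that binds the interferon-stimulated response element (ISRE) in the promoters of its targets, and many of those targets act against viruses. Of 26 genes in the list 25 were listed and all 25 had a mean of at least 1 FPKM. All 25 were lowest in replicate 1 and highest in replicate 3, an order found in 14.3% of all genes. A range of 2-fold was reached by 24 of the 25, against 2.24% of all genes.

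The promoters of Ifit3 and Isg15 are shown because both hold the ISRE letters and have the widest ranges among list members that do. The windows are the 250 bases before the RefSeq transcription start (GRCm38.p6, the mm10 build), written 5′ to 3′ on the strand of the gene. The response element was searched as GAAA, any 2 bases and GAAA again, on both strands, and capitals mark each match. Ifit3 lies at chr19:34583279-34583528 on the plus strand, with 2 matches, and Isg15 at chr4:156200819-156201068 on the minus strand, with 3 overlapping matches.
Ifit3: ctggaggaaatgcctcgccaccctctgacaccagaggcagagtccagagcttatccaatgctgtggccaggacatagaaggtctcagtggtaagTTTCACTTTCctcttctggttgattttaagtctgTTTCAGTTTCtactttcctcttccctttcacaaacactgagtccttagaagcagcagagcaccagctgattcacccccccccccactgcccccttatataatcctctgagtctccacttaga
Isg15: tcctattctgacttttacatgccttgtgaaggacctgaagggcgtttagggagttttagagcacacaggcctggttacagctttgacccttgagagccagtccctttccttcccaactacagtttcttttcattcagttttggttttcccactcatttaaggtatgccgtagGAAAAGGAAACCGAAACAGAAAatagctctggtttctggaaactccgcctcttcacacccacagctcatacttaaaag

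This motif was present in 7 of the 16 interferon list members with a promoter window, in 2.98% of all 32851 windows and in 3.19% of the 10001 genes with a mean of at least 1 FPKM and a window. The members that held it were Ifit3, Isg15, Ifit1, Stat2, Oas1a, Bst2 and Rsad2. A match of letters does not show binding, and 9 list members had no window to search.

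The transcription factors of the response showed the order of its effectors. Irf7, the factor that amplifies interferon production, was at 12.9, 43.1 and 86 FPKM. Stat2 was at 7.78, 16.8 and 30.2, and Irf9 at 31.2, 49.5 and 71.1. The highest library of Irf7 was thus 6.65 times the lowest. Replicate 3 was the highest and replicate 1 the lowest for each of these 3 genes.

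The 4 most abundant members were the tetherin gene Bst2 (152, 207 and 359 FPKM), Ifi27l2a (44, 90.9 and 155), the ubiquitin-like modifier Isg15 (25.8, 73.5 and 147) and the 2′-5′ oligoadenylate synthetase-like gene Oasl2 (26.9, 65 and 133). Zbp1, a sensor of Z-form nucleic acid, ranged most of the list, from 1.33 in replicate 1 through 7.03 to 18 in replicate 3. On the log2(FPKM + 1) scale Ifit3 (12.7, 27.8 and 92.7), Irf7 and Oas2 (3.48, 11.7 and 26) had the next widest ranges of the list. Ifit3b, a near copy of Ifit3 that is in no list, was at 5.22, 11 and 34.6. Values of Ifit3 and Ifit3b are uncertain, since the counting may divide shared reads between them.

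Genes for MHC class I and antigen processing showed the same order in 13 of 13 members with a mean of at least 1 FPKM, against 14.3% of all genes, and 6 of the 13 reached a 2-fold range, against 2.24%. B2m, the light chain of class I molecules, was at 345, 570.0 and 706 FPKM. The heavy chain genes H2-K1 (139, 233 and 311) and H2-D1 (129.9, 181 and 260.3) followed. Cd74, the class II invariant chain gene, was at 85.1, 108 and 152.

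A group of interferon-inducible GTPases was listed after these values were seen, and its direction and ranges are therefore a description. All 15 genes had a mean of at least 1 FPKM, the order lowest in replicate 1 and highest in replicate 3, and a range of at least 2-fold, which 14.3% and 2.24% of all genes had. They included Irgm1 (22.9, 45.6 and 83.1 FPKM), Iigp1 (13.1, 31.5 and 69.8), Tgtp1 (4.07, 14 and 34.5) and its close copy Tgtp2 (4.52, 16.3 and 39.7), which defend the cell against intracellular pathogens.

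Most myeloid marker levels moved with these genes. Of 16 macrophage and myeloid markers, 11 were lowest in replicate 1, against 27.9% of all genes, and 10 were also highest in replicate 3, against 14.3%. The list had a median deviation from the mean of the 3 libraries of -0.23, 0.01 and 0.31 on the log2 scale. The corresponding values were -0.95, 0.04 and 0.91 for the interferon list and -0.49, -0.02 and 0.45 for the MHC list. The part of myeloid cells in the interferon and MHC values was not tested. Without replicate 1, 10 interferon members and 1 MHC member kept a 2-fold range, and without replicate 3, 12 and 0 did.

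Mitosis genes set replicate 2 apart. These genes are transcribed in the G2 and M phases of dividing cells, and at weaning the uterine epithelium and stroma are still growing. Of 23 genes, all with a mean of at least 1 FPKM, 22 were lowest in replicate 2 and 21 were highest in replicate 1, each being true of 33.7% of all genes. A 2-fold range was reached by 21 of 23, where 2.24% of all genes and 5.82% of those from 1 to 3 FPKM reached it.

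Promoters of Ube2c and Mki67 are shown because they hold the letters TTTGAA and belong to the mitosis genes of widest range. These letters are the core of the cell cycle genes homology region (CHR), to which the MuvB complex binds. The windows are again the 250 bases before the start, with the letters on either strand in capitals. Ube2c lies at chr2:164769679-164769928 on the plus strand and Mki67 at chr7:135716380-135716629 on the minus strand.
Ube2c: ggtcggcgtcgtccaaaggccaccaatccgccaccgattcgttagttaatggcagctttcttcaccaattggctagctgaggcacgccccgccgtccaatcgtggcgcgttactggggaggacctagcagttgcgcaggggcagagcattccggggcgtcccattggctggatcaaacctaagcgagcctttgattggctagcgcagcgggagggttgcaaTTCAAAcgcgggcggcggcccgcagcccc
Mki67: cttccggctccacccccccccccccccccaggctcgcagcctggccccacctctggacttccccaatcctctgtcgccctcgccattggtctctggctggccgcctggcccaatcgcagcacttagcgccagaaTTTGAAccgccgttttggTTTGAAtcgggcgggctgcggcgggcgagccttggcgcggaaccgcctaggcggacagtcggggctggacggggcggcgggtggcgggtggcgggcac

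The match in Ube2c ends 23 bases before the RefSeq start, and Mki67 has 2 matches. GENCODE M21 begins Ube2c at 164769898, which places that match inside the gene. TTTGAA was found in 8 of the 19 mitosis list members with a window, in 16% of all windows and in 12.6% of the genes with a mean of at least 1 FPKM and a window.

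Top2a, which untangles DNA before chromosomes separate, was the most abundant of the list at 18.2, 4.72 and 11.7 FPKM. Ube2c, the ubiquitin-conjugating enzyme of the anaphase-promoting complex, was at 16.4, 2.74 and 14.2, so that replicates 1 and 3 were close and replicate 2 was low. Ccna2, the cyclin of S phase and G2, was at 13.7, 3.62 and 6.86, and Prc1, an organiser of the mitotic spindle midzone, at 11.9, 4.1 and 7.55. The summed level of the list was 178, 49 and 127 FPKM. Ccnb1, the mitotic cyclin, was named after its values were seen and was at 6.36, 0.89 and 4.13.

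Of 19 DNA replication genes 1 reached a 2-fold range, which is near the 2.24% of all genes. Pcna, the sliding clamp of the replicative polymerases, was at 105, 85.3 and 74.3 FPKM, and the helicase subunit genes Mcm6 (35.2, 31.9 and 31.5) and Mcm7 (31.4, 26.1 and 27.3) varied little. Rrm1, of ribonucleotide reductase, was at 20.9, 14.7 and 17.5. The member past 2-fold was Rrm2, the subunit whose level follows S phase, at 8.73, 2.86 and 5.08. The highest library was replicate 1 in 16 of the 19, against 33.7% of all genes. The count of mitosis genes over 2-fold was 10 without replicate 1 and 2 without replicate 2. Restricted to genes with a mean of at least 10 FPKM it was also 2, since only Top2a and Ube2c of the list are that abundant.

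Clock genes set replicate 1 apart. The circadian clock is a feedback loop in which CLOCK and BMAL1 (encoded by Arntl) drive the Per, Cry and Nr1d genes, whose products repress that drive. Output genes such as Dbp peak at another time of day than Arntl. Of 15 clock genes with a mean of at least 1 FPKM, 8 reached a 2-fold range, against 2.24% of all genes, and 11 were highest in replicate 1, against 33.7%.

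The promoters of Tef and Per3 are shown for the letters of the clock. In the Tef window (chr15:81802423-81802672, plus strand) capitals mark the E-box CACGTG, which CLOCK and BMAL1 bind. This window lies before the RefSeq start, but inside the gene as placed by GENCODE M21, which begins at 81802421. In the Per3 window (chr4:151044666-151044915, minus strand) capitals mark TTATGTAA, a D-box sequence of the kind that Dbp, Tef and Hlf proteins bind.
Tef: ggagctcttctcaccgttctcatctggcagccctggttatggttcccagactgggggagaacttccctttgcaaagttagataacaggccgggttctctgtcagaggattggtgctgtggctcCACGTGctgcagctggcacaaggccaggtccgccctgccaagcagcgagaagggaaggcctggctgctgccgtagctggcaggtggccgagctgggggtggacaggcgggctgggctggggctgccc
Per3: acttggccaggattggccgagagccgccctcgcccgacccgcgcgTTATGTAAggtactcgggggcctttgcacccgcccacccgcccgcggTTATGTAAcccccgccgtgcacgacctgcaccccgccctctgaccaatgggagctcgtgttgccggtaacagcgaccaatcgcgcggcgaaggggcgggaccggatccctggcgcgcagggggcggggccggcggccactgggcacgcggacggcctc

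CACGTG occurred in 4 of the 13 clock genes with a window, against 6.02% of all windows and 9.78% of genes with a mean of at least 1 FPKM. TTATGTAA occurred in 1 of the 13, Per3, which has 2 matches, against 0.819% of windows and 0.56% of those genes.

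The output factors of the D-box family were all highest in replicate 1. Dbp was at 127, 45.7 and 37.7 FPKM, Tef at 87, 40.9 and 35, and Hlf at 23.2, 12.7 and 9.21. The repressor genes Nr1d1 (47.7, 26.9 and 29.9), Nr1d2 (56.9, 32.2 and 30.5), Per3 (27.5, 8.99 and 8.55) and Per2 (13.6, 7.47 and 5.12) shared that pattern. Arntl had the opposite pattern, with 5.36, 14.1 and 15.5, as did Npas2, a relative of Clock, with 1.88, 4.84 and 7.39. Within a library the ratio of Dbp to Arntl was 23.7 in replicate 1, 3.24 in replicate 2 and 2.43 in replicate 3. Per1 (23, 20.4 and 22.2) and Clock (14.4, 16.4 and 15.1) differed little. Hlf, Per3, Per2, Arntl, Npas2, Per1 and Clock are named after their values were seen. Without replicate 1 no clock gene kept a 2-fold range. The labels give no time of day at which the mice were killed, so its part in these values was not tested.

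**Figure D4:**
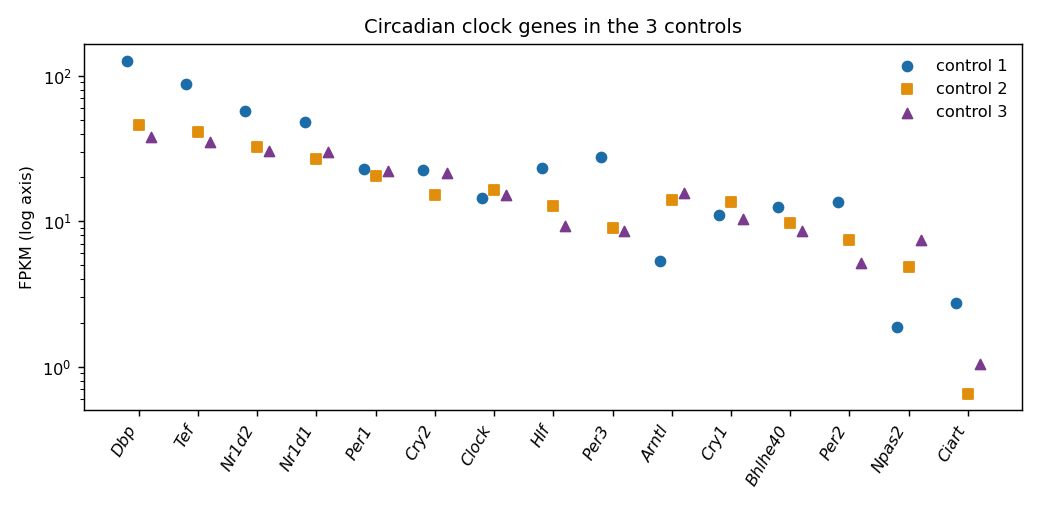
FPKM on a log axis for the 15 clock genes with a mean of at least 1, with a point for each control library. Replicate 1 is the highest library for 11 of the 15, and for Arntl (5.36 against 14.1 and 15.5) and Npas2 it is the lowest.

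Blood and fat genes also differed between the controls. The haemoglobin genes shared 1 order, highest in replicate 1 and lowest in replicate 3. Hba-a1 was at 1701, 779.9 and 262 FPKM, Hba-a2 at 1443, 654 and 219.6, Hbb-bs at 1594, 789.6 and 240.4, and Hbb-bt at 828, 397 and 127. The highest library was 6.4 to 6.63 times the lowest in the 5 red cell genes with a mean of at least 1 FPKM, Alas2 included. The alpha genes, like the beta genes, are near copies, so their separate values are uncertain. The adipocyte genes were much higher in replicate 1 than in the other libraries: Fabp4, a fatty acid binding protein of adipocytes and capillary endothelium, was at 42.2, 0.728 and 1.79, and Cfd, the adipsin gene, at 25.2, 1.02 and 2.86. Retn, the resistin gene, was at 7.54, 0 and 0.873, Adipoq, the adiponectin gene, at 4.71, 0.0742 and 0.614, and Cidec, a lipid droplet gene, at 2.81, 0 and 0.242. These 5 are the members of the adipocyte list with a mean of at least 1 FPKM, and all 5 were highest in replicate 1, against 33.7% of all genes. Car3, which is not in the list, was at 24.3, 0.335 and 1.86. All 5 adipocyte genes and all 5 red cell genes reached a 2-fold range, against 2.24% of all genes. Ucp1, of brown fat, was listed at 0. Without replicate 1 none of the 5 adipocyte list members kept a 2-fold range, while all 5 red cell genes did.

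**Figure D5:**
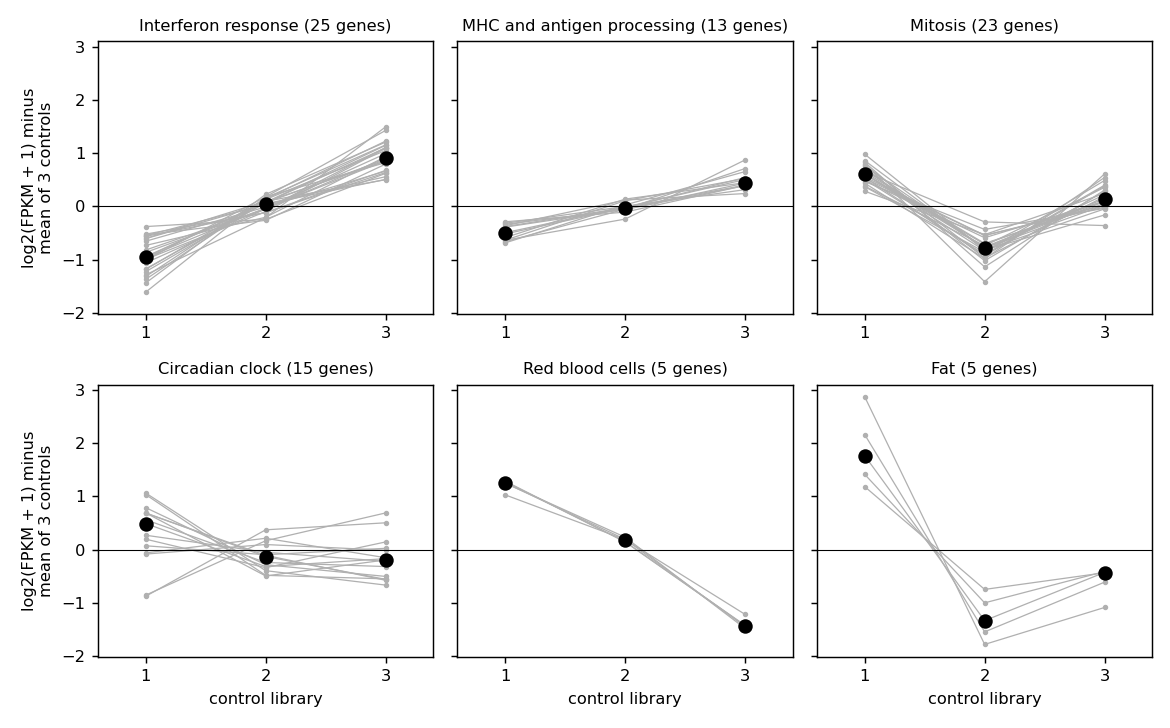
Deviation of log2(FPKM + 1) from the mean of the 3 controls for 6 gene lists, with a grey line joining the values of each gene and a black point at the list median of each library. Library numbers are names and carry no order. The interferon list has medians of -0.95, 0.04 and 0.91, and the mitosis list has 0.61, -0.78 and 0.15.

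None of 25 extracellular matrix genes, 12 imprinted growth genes or 22 nuclear-encoded respiratory chain genes reached a 2-fold range, a count near what the 2.24% of all genes would give. Sparc, a collagen-binding matrix protein, led the matrix list at 1408, 1201 and 1372 FPKM, followed by Col6a1 (365, 367 and 395), Col6a2 (322, 318 and 331) and Timp2, an inhibitor of matrix proteases (194, 208 and 207). Gnas, which encodes the stimulatory G protein alpha subunit, led the imprinted list at 853, 890.4 and 864, ahead of Ndn (68.5, 75.9 and 59.8), the growth-restraining Cdkn1c (50, 55.7 and 42.8) and Sgce (49.4, 44.8 and 50.7). Igf2, the fetal growth factor, was at 40.9, 30.3 and 34.7. The respiratory chain list was led by Cox4i1 (638, 534 and 571), Cox6a1 (616, 543 and 484), Cox8a (483, 462 and 444) and Atp5b (437, 422 and 376).

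Immediate early genes, which rise within minutes of tissue handling or stimulation, had no member over 2-fold among 13 with a mean of at least 1 FPKM, which is near the 2.24% of all genes. Jun (76.1, 80.7 and 78.7 FPKM), Ier2 (30.5, 28.4 and 27.8), Btg2 (26.7, 20.7 and 22.6) and Zfp36 (19.6, 24.1 and 24.6) were the highest. Their summed level was 240.0, 248 and 240.2.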

How the data were processed

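Poly(A) RNA of 3 floxed control uteri was analysed, and the 3 Nat10-deleted libraries of the series were left out because only the control tissue is described. RNA was extracted with TRIzol and libraries made with a TruSeq RNA kit, per the labels' protocols. HISAT2 2.2.1, Cufflinks 2.2.1 and the mm10 build are named, per the submitters' processing notes, without a role or order. The authors deposited 1 value per gene and library, taken as FPKM because Cufflinks writes that unit and the deposited values are not whole and sum to no fixed total. The unit is in no header, and the annotation, gene filter and strandedness are not given in the sources used here. Without strand, reads of overlapping or antisense genes cannot be told apart. Of the identifiers, 99.6% are in GENCODE M21, which gave gene positions.

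Values were used as deposited. Spread was the SD and range of log2(FPKM + 1), a scale that understates the range of low genes, for genes with a mean of at least 1 over the 3 libraries. Relative depth came from the most frequent ratio of values under 0.15 between libraries. Of 571 symbols in 40 gene lists, 561 matched. The members and lists were chosen with earlier results of these data known, and 2 more lists were added after these values were seen. Genes named are the 15 most abundant, all steroid receptors, the 4 highest of each other list, carry-over markers at 0, the 15 of largest and 10 of smallest spread with a mean of at least 5, and Nat10. Some genes that this rule names are not reported here. Others are marked where they appear or serve as examples of a list chosen after the values were seen. Promoters are RefSeq windows of GRCm38.p6, and of 552 windows of list members 450 continued into a GENCODE transcript on the same strand and 0 on the other. The spread script was checked on simulated data. Alternatives were other pseudocounts, filters and scalings and leaving out each library. Python 3.11.15, pandas 2.3.3, numpy 2.4.6 and matplotlib 3.10.9 were used.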

Additional observations from a re-analysis of the deposited data

How the results depend on the processing

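No paired analysis was possible because only 1 group is described and no result comes from a test. The count of genes at 1 FPKM or more in every control was 12218, and it stayed within 1.5 times under each alternative tried, from 9543 at a minimum of 5 to 14133 at a minimum of 0.1. The share of the 10 most abundant genes moved by less than its SD without red cell genes or any library. The median SD was 0.133 with libraries scaled to a sum of 1000000, 0.135 with a pseudocount of 0.1, 0.108 for genes with a mean of at least 10, and 0.0943 to 0.109 with a library left out. The count over a 2-fold range was 441, 485, 101 and 113 to 165 under those settings in the same order. Median centring, upper-quartile scaling, quantile normalization and no filter kept it between 273 and 316. With a mean of at least 10 the members over 2-fold were 2 for mitosis, 5 for the clock and 1 for fat, because fewer genes remain. With a library left out they were 10 to 24 for interferon, 0 to 6 for MHC, 2 to 20 for mitosis, 0 to 7 for the clock and 0 to 5 for fat. Alternatives applied to single lists were chosen after the data were seen. A setting without mitochondrially encoded genes was not run, since those genes entered no value. Under each scaling the median deviation of all genes in a library from the mean of the 3 lay between -0.0243 and 0.0195 log2 units. Depth is known only relative to replicate 1, so values far under 1 FPKM carry no counting interval.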

Other observations

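Cholesterol synthesis genes were mostly highest in replicate 2 and lowest in replicate 3. A list of 23 genes of the pathway and its regulators was written after several of them were seen among the genes of widest range. Its direction and its count over 2-fold are therefore descriptions of these 3 libraries. Of the 23, 19 were highest in replicate 2, against 35.1% of all genes, and 20 were lowest in replicate 3, against 38.5%. The median deviation from the mean of the 3 libraries was 0.01, 0.19 and -0.22 on the log2 scale. Sqle, the squalene epoxidase gene, was at 8.07, 15.7 and 6.13 FPKM in replicates 1, 2 and 3. Idi1, an isomerase early in the pathway, was at 6.95, 7.68 and 2.85. A 2-fold range was reached by 4 of the 23, Sqle and Idi1 among them, against 2.24% of all genes. Members of wide range had prompted the list, so its choice favoured a higher count. Srebf2, the transcription factor that drives the pathway, was at 30.6, 34.1 and 25.3.

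Heat shock protein genes were also highest in replicate 2, in 9 of 10 members, against 35.1% of all genes, as were 15 of 18 smooth muscle markers. None of the 10 reached a 2-fold range, which is near the 2.24% of all genes. Hspa8 was at 812, 895 and 746 FPKM, Hspd1, a mitochondrial chaperonin gene, at 107, 129 and 89, and Hsph1 at 30, 50.2 and 29.9. Sumo2, the gene of a small ubiquitin-like modifier, was at 162, 56.4 and 91 FPKM, a range outside all lists that was singled out after its values were seen. Of the 282 genes over a 2-fold range, 180 lay outside every list used here. Of these 61 were lowest in replicate 1 and highest in replicate 3, an order of 14.3% of all genes. Another 58 were lowest in replicate 2 and highest in replicate 1, an order of 16.8% of all genes.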
